A study of Mus musculus with 12 samples.

Results

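The genes described here are the pattern-sensing C-type lectins of the macrophage surface, 7 genes listed by name: *Clec4a2*, *Clec4d*, *Clec4e*, *Clec4n*, *Clec5a*, *Clec7a* and *Clec12a*. A gene was taken from the arrays where the accession of a probe belonged to it. Probes of 6 of the 7 genes were found among the 32301 genes or transcripts of the arrays, and *Clec7a* was not analysed here. All 6 genes were well above background on all 12 arrays, so each entered every test with the 22367 genes kept by the filter on dim probes.

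C-type lectin receptors bind sugars and lipids of fungi, mycobacteria and dying cells. *Clec4e* (Mincle), *Clec4d* (MCL) and *Clec4n* (Dectin-2) are activating receptors that signal through the Fc receptor gamma chain (*Fcer1g*), the kinase Syk and the Card9-Bcl10-Malt1 complex. *Clec5a* (MDL-1) signals through the adaptors DAP12 (*Tyrobp*) and DAP10 (*Hcst*), whereas *Clec4a2* (DCIR) and *Clec12a* (MICL) carry an inhibitory motif that recruits the phosphatases SHP-1 (*Ptpn6*) and SHP-2 (*Ptpn11*).

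RNA came from bone marrow-derived macrophages (BMDMs) of C57BL/6 mice aged 8 weeks, grown with M-CSF for 7 days. WT mice were compared with KpCKO mice, which carry Keap1 flox/flox and the LysM-Cre driver, so that *Keap1*, the gene of the adaptor that holds the transcription factor Nrf2 low, is removed in myeloid cells. The cells of each genotype were untreated (Con), stimulated for 6 h with LPS and IFNγ (M1), or stimulated for 6 h with IL-4 (M2). Each of the 6 groups held 2 arrays, 1 from each of 2 independent cultures, and each culture used 1 WT and 1 KpCKO mouse, males in culture 1 and females in culture 2. The 3 stimuli of a genotype and culture therefore shared a mouse. A shift that a culture shares over all 6 groups is removed by the model. The p-values measure how far the differences between groups disagree between the 2 cultures, with a spread estimated over the 6 groups together.

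The level of a gene is given as the log2 intensity of its brightest probe relative to the 75th percentile of the array, and a difference is the difference of these levels. Levels of different genes come from different probes and are not compared with each other. Each of the 3 slides held the 4 arrays of 1 stimulus, so WT and KpCKO of a stimulus were on the same slide, and the effects of stimulus and slide cannot be told apart. The 75th percentile was lower on the M1 arrays, with intensities of 757 and 548 in WT and 906 and 787 in KpCKO against 966 to 1166 on the other 8 arrays. *Keap1* was lower in KpCKO by log2 differences between −1.46 and −1.81 over the 3 stimuli, and the Nrf2 target *Nqo1* was higher by 3.23 to 3.52. All 9 macrophage markers with a probe, among them *Adgre1*, *Csf1r* and *Mertk*, were well above background on every array. The summed linear level of these 9 markers was 897 to 947 in WT Con and 772 to 827 in KpCKO Con, and 1050 to 1205 in WT M1 and 874 to 902 in KpCKO M1. In M2 the sums were 777 to 841 in WT and 766 to 786 in KpCKO. The summed level of 14 neutrophil markers lay between 6.22 and 18.4 and overlapped between the genotypes under each stimulus, and *Elane* was above background on no array. Dendritic cell markers (9 genes) summed to 1.01 to 1.86 in Con, 4.47 to 8.47 in M1 and 25.5 to 36.3 in M2. In Con, this sum was 1.01 to 1.28 in WT and 1.38 to 1.86 in KpCKO. Its largest term under each stimulus was *Batf3*, at mean log2 levels of −0.262, 2.199 and 4.973 in WT Con, M1 and M2. *Batf3* was thus 5.23 higher on the log2 scale in WT M2 than in WT Con. Of the 9 genes, 1 was called higher and 0 lower with M2 in WT, and 5 higher and 1 lower with M1. *Cd3d*, *Ms4a1* and *Pax5* of the lymphocyte markers and *Ms4a2* of mast cells were above background on no array. The mast cell and basophil markers (9 genes) summed to 10.1 to 10.6 in WT M1 and 2.86 to 4.07 in KpCKO M1. The largest term of this sum in M1 was *Hdc*, at a mean log2 level of 3.325 in WT and 1.663 in KpCKO. In Con the sum was 0.229 to 0.245 in WT and 0.299 to 0.314 in KpCKO. The erythroid markers (9 genes) summed to 1.70 to 1.91 in WT Con and 2.43 to 4.03 in KpCKO Con. In M1 they summed to 0.575 to 0.657 in WT and 0.957 to 1.61 in KpCKO. The largest term in Con and M1 was *Tfrc*, at mean log2 levels of 0.354 and −1.553 in WT and 1.461 and −0.088 in KpCKO. The lymphocyte markers (10 genes) summed to 0.397 to 0.497 in WT M1 and 0.538 to 0.807 in KpCKO M1. Of these, *Cd3e* had no value on 1 WT M1 array and 1 KpCKO M2 array, so the sums of these arrays leave it out. Its mean log2 level in KpCKO M1 was −2.06, and its part in the M1 gap was not tested. In the other stimuli the mast cell, erythroid and lymphocyte sums overlapped between the genotypes. The part of these marker levels in the results below was not tested.

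The sequences before the gene starts of *Clec4e* and *Clec5a*, the genes with the largest M1 differences, and of *Clec4d* and *Clec4a2*, which differed between the genotypes, are shown 5′ to 3′ on the strand of each gene. They are RefSeq sequences of GRCm38.p6, and the last base is the one before the start of the gene. RefSeq windows were found for 6 of the 7 genes (not for *Clec4n*), and all lie on chromosome 6. The starts of *Clec4d* and *Clec4e*, which are read in opposite directions, are 27764 bases apart. Capitals mark the letters of a searched motif, and positions count back from −1, the last base shown. The *Clec4e* sequence (chr6:123289872-123290121, minus strand) holds a C/EBP motif at −66, and the *Clec5a* sequence (chr6:40585806-40586055, minus strand) holds PU.1 motifs at −82 and −56. The *Clec4d* sequence (chr6:123261857-123262106, plus strand) holds a PU.1 motif at −241 and an antioxidant response element (ARE), the motif bound by Nrf2, at −10. The *Clec4a2* sequence (chr6:123122440-123122689, plus strand) holds a GAS motif at −42.
Clec4e: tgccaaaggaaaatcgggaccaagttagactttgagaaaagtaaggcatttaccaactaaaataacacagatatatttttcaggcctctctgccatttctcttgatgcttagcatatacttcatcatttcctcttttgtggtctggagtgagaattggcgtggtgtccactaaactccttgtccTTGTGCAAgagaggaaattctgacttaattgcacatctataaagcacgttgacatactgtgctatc
Clec5a: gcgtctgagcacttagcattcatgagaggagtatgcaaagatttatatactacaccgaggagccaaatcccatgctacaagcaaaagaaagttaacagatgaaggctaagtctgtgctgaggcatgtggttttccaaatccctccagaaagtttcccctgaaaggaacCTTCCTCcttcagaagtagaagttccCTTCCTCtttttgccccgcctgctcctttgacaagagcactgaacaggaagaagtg
Clec4d: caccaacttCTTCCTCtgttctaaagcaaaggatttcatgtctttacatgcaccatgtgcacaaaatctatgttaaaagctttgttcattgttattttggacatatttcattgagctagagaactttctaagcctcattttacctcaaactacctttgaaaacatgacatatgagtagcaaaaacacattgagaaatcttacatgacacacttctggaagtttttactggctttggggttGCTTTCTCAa
Clec4a2: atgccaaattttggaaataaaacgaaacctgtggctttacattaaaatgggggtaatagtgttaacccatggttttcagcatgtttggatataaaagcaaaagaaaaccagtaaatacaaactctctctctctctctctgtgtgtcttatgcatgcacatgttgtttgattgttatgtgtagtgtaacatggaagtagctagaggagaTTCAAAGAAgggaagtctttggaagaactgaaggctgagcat

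The motifs were searched on both strands in windows of 300 bases, 250 before and 50 after the start. In the 50 bases after the start, not shown, *Clec4d* holds an ISRE motif at the first base and *Clec4a2* an AP-1 motif at base 32. *Clec12a* holds an AP-1 motif at −213, a C/EBP motif at −140 and a PU.1 motif at −61. No window of the 6 genes holds the kappa B letters (GGG and CC with any 5 bases between them), and the *Clec7a* windows hold none of the motifs. None of these matches overlap. Of 32851 RefSeq windows of this length, 27.8% hold an ARE (TGACNNNGC or TGAGNNNGC), 13.6% PU.1 (GAGGAAG), 10.8% C/EBP (TTGCNNAA), 8.3% GAS (TTCNNNGAA), 7.81% AP-1 (TGANTCA), 3.44% ISRE (GAAA repeated after any 2 bases) and 50.8% the kappa B letters. A match describes letters and is not evidence of a bound site.

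In M1-stimulated WT cells *Clec4e*, *Clec5a*, *Clec12a* and *Clec4n* were higher than in Con, *Clec4a2* was lower, and *Clec4d* was not called. Thus 5 of 6 genes passed an adjusted p of 0.05 (limma, Benjamini-Hochberg), 4 higher and 1 lower, where 63.2% of 22356 genes tested passed (34.5% higher and 28.7% lower). The median difference of the 6 genes was 1.53, and that of all genes was 0.13. Since the RNA is from bulk cultures, fewer cells that express a gene and less RNA per cell cannot be told apart.

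*Clec4e*, the receptor of mycobacterial cord factor, had levels of 2.24 and 3.34 in the WT Con arrays of cultures 1 and 2, and of 7.98 and 8.37 in WT M1. In KpCKO it was at 0.79 and 2.31 in Con and at 7.76 and 8.04 in M1. All 4 M1 arrays stood above all 8 others. The log2 difference of M1 and Con in WT was 5.39 ± 0.36 (SE), or 41.9-fold, with 5.74 in culture 1 and 5.04 in culture 2 (limma adjusted p = 3.28e-05). In KpCKO it was 6.35 ± 0.36, or 81.7-fold (adjusted p = 3.18e-05).

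*Clec5a*, the DAP12-coupled receptor, was at 2.55 and 3.15 in WT Con and at 7.04 and 6.70 in WT M1. Its KpCKO levels were 1.37 and 2.43 in Con and 6.15 and 6.13 in M1. It had the second largest M1 difference of the 6 genes in both genotypes. The difference was 4.02 ± 0.33 in WT, or 16.2-fold (adjusted p = 7.29e-05), and 4.24 ± 0.33 in KpCKO (adjusted p = 0.000103). The other 2 probes of *Clec5a* gave 4.21 and 5.56 in WT.

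*Clec12a*, an inhibitory receptor of uric acid crystals and dead cells, was dim, at −2.14 and −1.91 in WT Con and −0.05 and −0.40 in WT M1. In KpCKO it was at −2.64 and −1.90 in Con and −0.54 and −0.68 in M1. It thus rose with M1 although it belongs to the inhibitory receptors, by 1.80 ± 0.26 in WT, or 3.48-fold (adjusted p = 0.000925), and by 1.66 ± 0.26 in KpCKO (adjusted p = 0.00189). *Clec4n*, the receptor of fungal mannans, was at 2.71 and 3.39 in WT Con, 4.26 and 4.34 in WT M1, 2.91 and 2.95 in KpCKO Con, and 4.48 and 4.56 in KpCKO M1. The M1 arrays did not overlap the Con arrays, and the difference was 1.25 ± 0.22 in WT, or 2.39-fold (adjusted p = 0.00231), and 1.59 ± 0.22 in KpCKO (adjusted p = 0.00111).

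*Clec4a2*, the other inhibitory receptor, moved the opposite way. Its levels were 4.49 and 5.20 in WT Con, 3.41 and 3.59 in WT M1, 3.68 and 4.41 in KpCKO Con, and 2.49 and 2.53 in KpCKO M1. It fell by 1.35 on the log2 scale in WT (SE 0.23; −1.08 and −1.61 by culture; adjusted p = 0.00199) and by 1.54 in KpCKO (adjusted p = 0.00152). A second probe above background on all 12 arrays gave −1.24 in WT. The sequences of the probes were not used here, so shared signal with the neighbouring paralogs *Clec4a1*, *Clec4a3* and *Clec4b1* was not tested.

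*Clec4d*, which can pair with Mincle at the cell surface, was at 6.81 and 6.99 in WT Con and 7.03 and 7.15 in WT M1, and at 7.20 and 6.91 in KpCKO Con and 7.30 and 7.13 in KpCKO M1. The M1 array lay slightly above the Con array of the same genotype and culture in all 4 pairs. The difference of M1 and Con was 0.19 in WT (95% CI −0.25 to 0.63, adjusted p = 0.404) and 0.16 in KpCKO (95% CI −0.28 to 0.61, adjusted p = 0.502). Its direction depends on the scaling: quantile normalization gave −0.68 in WT (limma adjusted p = 0.011) and −0.37 in KpCKO. In WT, 4 genes were then higher and 2 lower. Quantile normalization shifted the median of all genes by −0.21 in WT, less than it shifted *Clec4d*, and the cause was not tested. The calls of the other 5 genes held in WT and in KpCKO under each of 14 alternatives, the methods' t-test left aside. In KpCKO 5 of 6 genes passed as well, with the directions seen in WT, where 50.2% of all genes passed (24.8% higher and 25.4% lower).

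**Figure D1:**
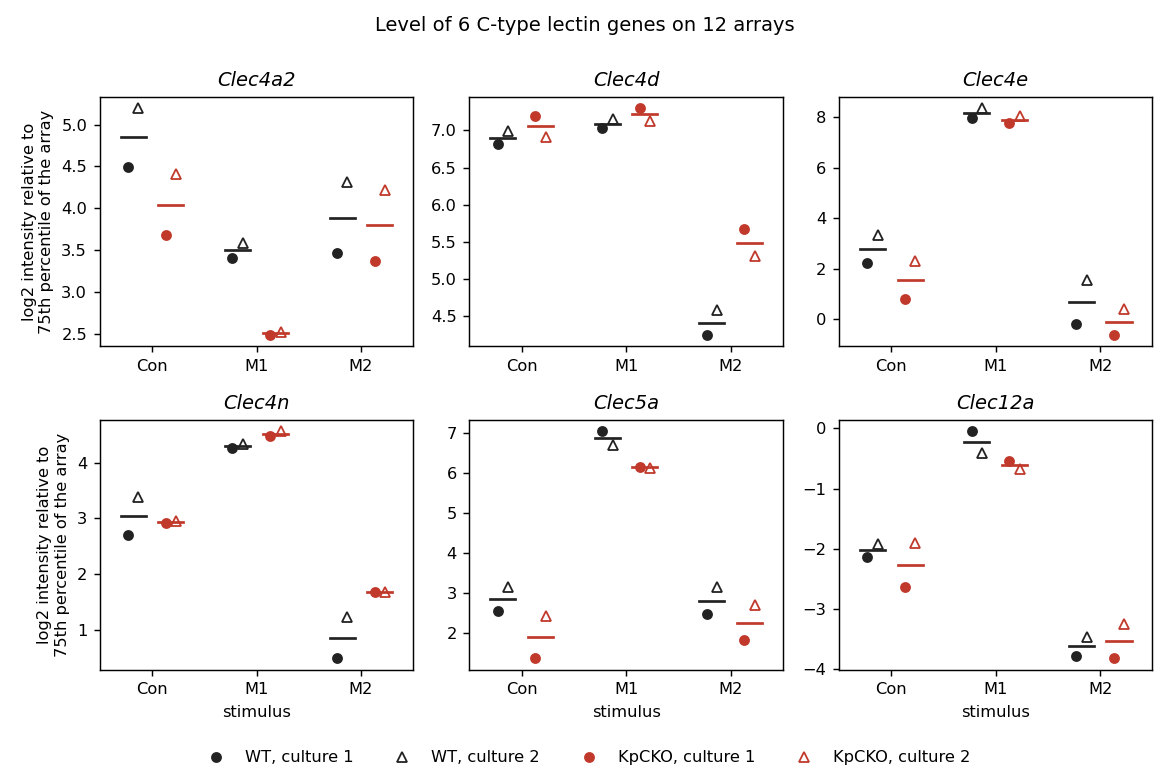
Levels of the 6 C-type lectin genes on the 12 arrays (log2 intensity relative to the 75th percentile of the array, 1 panel a gene, each with its own axis), by stimulus and genotype. Points are arrays (circles culture 1, triangles culture 2) and lines are group means; the 4 M1 arrays of *Clec4e* sit between 7.76 and 8.37 and the 4 M2 arrays of *Clec4d* between 4.25 and 5.68.

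With IL-4, the activating receptors that signal through the Fc receptor gamma chain were all lower in both genotypes. In WT, *Clec4d*, *Clec4n*, *Clec4e*, *Clec12a* and *Clec4a2* were lower in M2 than in Con, and *Clec5a* was not called. These are 5 of 6 genes lower, where 16.8% of 22366 genes passed and 8.20% were lower (limma adjusted p under 0.05). The median difference of the 6 genes was −1.84, beside −0.0087 for all genes.

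*Clec4d* had the largest fall, from 6.81 and 6.99 in WT Con to 4.25 and 4.58 in WT M2. In KpCKO M2 it was at 5.68 and 5.31. The 4 M2 arrays lay below all 8 others, and the 2 WT M2 arrays lay below the 2 KpCKO ones. The log2 difference of M2 and Con was −2.48 ± 0.19 in WT, a 5.60-fold lower level (adjusted p = 0.000796), and −1.56 ± 0.19 in KpCKO, 2.95-fold lower (adjusted p = 0.00565).

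*Clec4n* was at 0.49 and 1.22 in WT M2 and at 1.68 and 1.68 in KpCKO M2, again with no overlap between M2 and the other 8 arrays or between the genotypes in M2. It fell by 2.19 in WT (adjusted p = 0.00206) and by 1.25 in KpCKO (adjusted p = 0.0199). For *Clec4e*, the M2 levels were −0.18 and 1.57 in WT and −0.63 and 0.40 in KpCKO, with culture 2 above culture 1 in each group, as in Con. Its differences were −2.09 ± 0.36 in WT (adjusted p = 0.0116) and −1.66 ± 0.36 in KpCKO (adjusted p = 0.0348).

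Of the inhibitory receptors, *Clec12a* was at −3.77 and −3.47 in WT M2 and −3.82 and −3.24 in KpCKO M2, below every Con and M1 array. The difference was −1.59 in WT (adjusted p = 0.01) and −1.26 in KpCKO (adjusted p = 0.0304). With normexp background correction these differences were −0.69 (adjusted p = 0.181) and −0.84 (adjusted p = 0.249), so that neither passed. *Clec4a2* was at 3.46 and 4.32 in WT M2 and 3.37 and 4.22 in KpCKO M2, and each genotype's M2 arrays were lower than its Con arrays of the same culture. It fell by 0.96 in WT (adjusted p = 0.0342), and in KpCKO its difference was −0.25 (95% CI −0.80 to 0.30, adjusted p = 0.544).

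*Clec5a* was at 2.47 and 3.15 in WT M2, close to its WT Con levels, with a difference of −0.04 (95% CI −0.83 to 0.75, adjusted p = 0.951). In KpCKO M2 it was at 1.83 and 2.69, a difference of 0.37 (95% CI −0.42 to 1.16, adjusted p = 0.539). Of the 6 genes, 4 were called lower with M2 in KpCKO, where 10.2% of all genes passed and 4.54% were lower. The WT calls of *Clec4d* and *Clec4n* held under all 14 alternatives, whereas those of *Clec4a2*, *Clec4e* and *Clec12a* missed the threshold in 6, 4 and 5 of them. Without any 1 of the 4 WT Con and M2 arrays the count was 2 or 3, and without the culture block it was 3. In KpCKO the count was 1 without any 1 of the 4 arrays, when *Clec4d* alone passed.

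**Figure D2:**
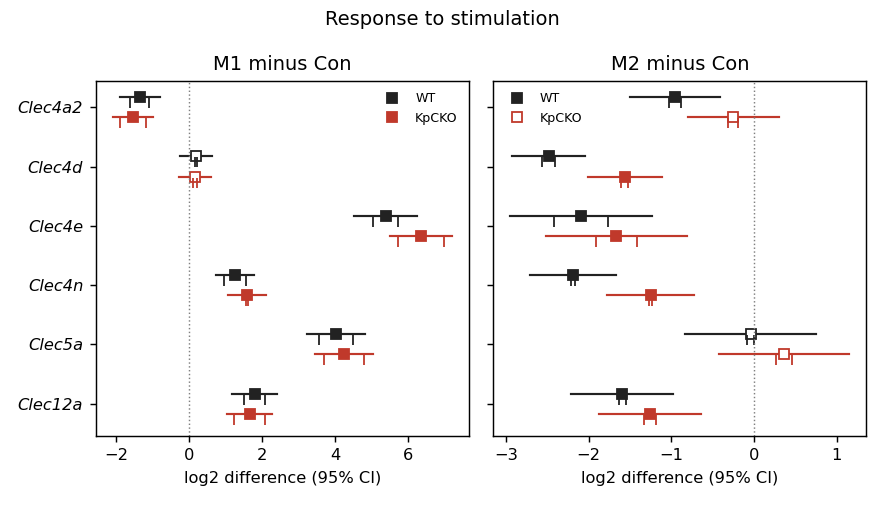
Difference of M1 and Con (left) and of M2 and Con (right) on the log2 scale for the 6 genes in WT (black) and KpCKO (red). Squares are limma estimates, filled where the adjusted p is under 0.05, bars are 95% confidence intervals and ticks are the values of the 2 cultures; with M2, *Clec4d* is at −2.48 in WT and −1.56 in KpCKO.

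The genotypes were compared within each stimulus. In Con, none of the 6 genes passed the adjusted p in limma, 3 had an unadjusted p under 0.05, and 2.22% of 22367 genes passed. The methods' t-test, adjusted, called 0 of all genes in this comparison, so it could not call any of the 6. The 3 genes were *Clec4a2*, *Clec4e* and *Clec5a*, each lower in KpCKO in both cultures. The difference was −0.80 for *Clec4a2* (95% CI −1.35 to −0.25, adjusted p = 0.169), −1.24 for *Clec4e* (95% CI −2.10 to −0.38, adjusted p = 0.174) and −0.95 for *Clec5a* (95% CI −1.74 to −0.16, adjusted p = 0.256).

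In M1, *Clec4a2* was lower in KpCKO, at 2.49 and 2.53 against 3.41 and 3.59 in WT, and was the 1 gene of 6 that passed, where 16.0% of 22354 genes passed and 8.58% were lower. The difference was −0.99 ± 0.23, a 1.99-fold lower level, with −0.93 in culture 1 and −1.06 in culture 2 (limma adjusted p = 0.0338). The second bright probe gave −1.03 and the third, above background on 5 arrays, −0.58. The adjusted p was 0.0748 with quantile normalization and 0.192 without the culture block. Without the first or second WT M1 array or the second KpCKO M1 array it was 0.103, 0.0632 and 0.112. The macrophage marker *Cd14* differed by −1.33 in M1. Of the 12 neutrophil markers tested, 4 had a difference above 0 in M1 and 1, *Mmp8* (2.09), passed, with a median of −0.32. As given above, the summed mast cell and basophil markers were lower and the summed erythroid markers higher in KpCKO M1, with *Hdc* and *Tfrc* as the largest terms. None of the 8 mast cell and basophil markers tested and 1 of the 7 erythroid markers tested passed in M1. The lymphocyte sums, higher in KpCKO M1, lack *Cd3e* on 1 WT M1 array. The part of these markers in the *Clec4a2* difference was not tested. The other inhibitory receptor, *Clec12a*, had a difference of −0.39 (95% CI −1.01 to 0.24, adjusted p = 0.336).

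Among the activating receptors in M1, *Clec5a* was at 7.04 and 6.70 in WT and 6.15 and 6.13 in KpCKO, which did not overlap. Its difference of −0.73 did not pass (95% CI −1.52 to 0.06, adjusted p = 0.172). *Clec4e* differed by −0.28 (95% CI −1.14 to 0.58, adjusted p = 0.623), *Clec4n* by 0.22 (95% CI −0.31 to 0.75) and *Clec4d* by 0.13 (95% CI −0.32 to 0.57).

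In M2, *Clec4d* was higher in KpCKO, at 5.68 and 5.31 against 4.25 and 4.58 in WT, and was again the 1 gene of 6 that passed, where 1.93% of 22365 genes passed and 1.28% were higher. The difference was 1.08 ± 0.19, or 2.11-fold, with 1.43 in culture 1 and 0.72 in culture 2 (limma adjusted p = 0.0422). *Clec4n* was at 1.68 and 1.68 against 0.49 and 1.22, and its difference of 0.83 did not pass (95% CI 0.30 to 1.35, unadjusted p = 0.00761, adjusted p = 0.154). Without the first or second WT M2 array the adjusted p of *Clec4d* was 0.26 and 0.0852, without the first or second KpCKO M2 array it was 0.235 and 0.0813, and without the culture block it was 0.0509. Of the 12 neutrophil markers tested, 5 had a difference above 0 in M2 and 2 passed, with a median of −0.36 beside 0.02 for all genes. One of the 2 was *Mmp8* (2.50), and the other, *Fcnb*, was not well above background on either WT M2 array. The part of these markers in the *Clec4d* difference was not tested.

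Over the mean of the 3 stimuli, 4 of 6 genes passed, where 17.2% of all genes did (8.61% higher and 8.54% lower). *Clec4a2* (−0.63, adjusted p = 0.022), *Clec4e* (−0.78, adjusted p = 0.0468) and *Clec5a* (−0.74, adjusted p = 0.0413) were lower in KpCKO, and *Clec4d* (0.45, adjusted p = 0.0326) was higher. *Clec4n* differed by 0.31 (adjusted p = 0.143) and *Clec12a* by −0.18 (adjusted p = 0.451). Without any 1 of the 12 arrays this count lay between 0 and 3, and without the culture block it was 1, *Clec4d*.

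**Figure D3:**
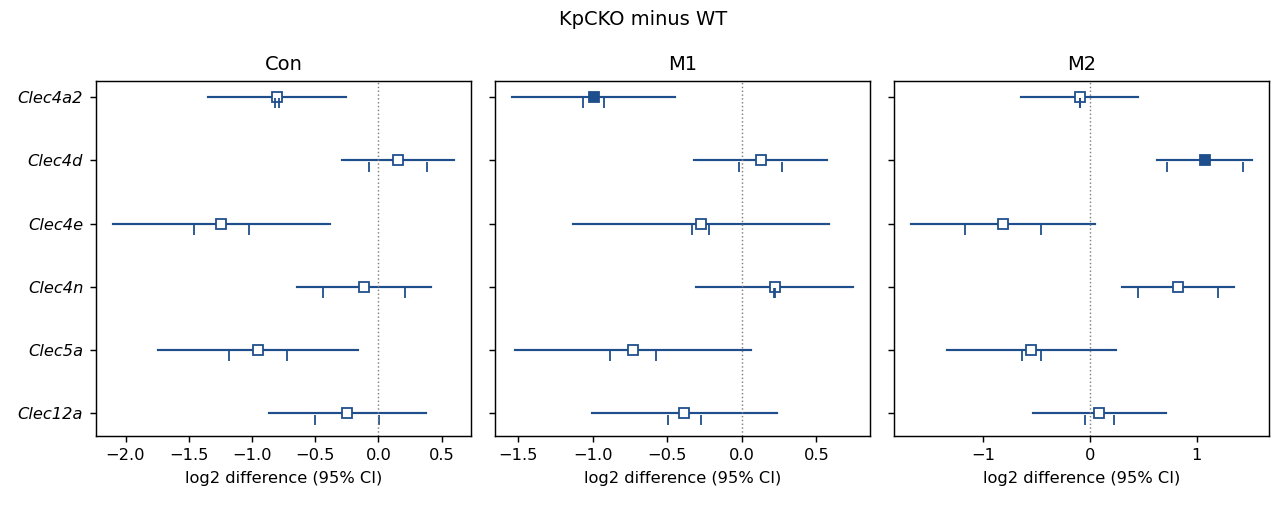
Difference of KpCKO and WT on the log2 scale for the 6 genes in Con, M1 and M2. Squares are limma estimates, filled where the adjusted p is under 0.05, bars are 95% confidence intervals and ticks are the values of the 2 cultures; the filled squares are *Clec4a2* in M1 (−0.99) and *Clec4d* in M2 (1.08).

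The difference between the genotypes in a response was tested directly. For the M1 response, 0 of 6 genes passed in limma and 0 had an unadjusted p under 0.05, and 0.0716% of all genes passed. The largest value was that of *Clec4e*, 0.96 higher in KpCKO (95% CI −0.25 to 2.18, adjusted p = 0.395). For the M2 response, 0 of 6 genes passed, 2 had an unadjusted p under 0.05, and 0.00894% of all genes passed. These 2 genes were *Clec4n* (0.94, 95% CI 0.20 to 1.68) and *Clec4d* (0.92, 95% CI 0.29 to 1.55), each with an adjusted p of 1. The estimates of all 6 genes were above 0, that is a smaller fall or a larger rise with IL-4 in KpCKO, with a median of 0.57 beside 0.02 for all genes. The same Con arrays enter the genotype difference in Con, which was above 0 for 1 of the 6 genes, with a median of −0.52. With normexp *Clec12a* was at −0.14, and without the first WT M2 array *Clec4e* was at −0.011.

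The genes that carry the signal of these receptors were described from a list of 20, of which 19 had a probe. In WT, 11 of the 19 rose with M1 and none fell, where 34.5% of all genes rose and 28.7% fell, with a median difference of 0.52 beside 0.13 for all genes. With quantile normalization 9 rose and 4 fell. *Malt1*, the protease of the Card9-Bcl10-Malt1 complex, rose by 4.92 (30.3-fold, adjusted p = 5.23e-06), the kinase gene *Src* by 4.70 and *Syk* by 1.97. The PI3-kinase subunit *Pik3cd* rose by 1.78. Of the adaptors, *Fcer1g* rose by 1.11, whereas *Tyrobp* (−0.07, adjusted p = 0.593) and *Hcst* (0.09, adjusted p = 0.531) were not called. With M2 in WT, 2 of 19 rose and 6 fell, where 8.62% of all genes rose and 8.20% fell, among them the protein kinase C gene *Prkcd* (1.94) and the exchange factor *Vav3* (−1.11). *Fcer1g* itself, the chain that *Clec4d*, *Clec4n* and *Clec4e* share, differed by 0.03 with M2 (adjusted p = 0.89).

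Between the genotypes, *Vav3* was the 1 partner called in Con (−0.82, lower in KpCKO) and in M2 (−0.66), where 2.22% and 1.93% of all genes passed. With normexp its adjusted p was 0.0907 in Con and 0.166 in M2, and both calls were also lost without any 1 of the 4 arrays compared. In M1, 5 of 19 were lower in KpCKO, where 8.58% of all genes were, namely *Vav3* (−1.15), *Pik3cd* (−0.85), the kinase gene *Lyn* (−0.70), *Fcer1g* (−0.49) and *Syk* (−0.46), and none was higher. With quantile normalization 1 was lower and 1 higher in M1. The *Vav3* call in M1 was lost under 1 of 14 alternatives, the fit of only the groups compared, which called 0 of all genes. Those of *Pik3cd*, *Lyn*, *Fcer1g* and *Syk* were lost under 7, 8, 8 and 9 of the alternatives. Among these were 2 arrays left out singly for *Pik3cd* (the second WT M1 and the first KpCKO M1 array), 3 for *Fcer1g* (all but the first WT M1 array) and all 4 for *Lyn* and *Syk*. The 75th percentile of the 2 WT M1 arrays was below that of the KpCKO M1 arrays, and its part in this count was not tested beyond that alternative.

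The list of inhibitory phosphatases and adaptors held 10 genes, of which 9 had a probe. With M1 in WT, 4 rose and 3 fell (34.5% and 28.7% of all genes), and with quantile normalization 3 rose and 3 fell. The phosphatase genes *Ubash3b* (2.03) and *Ptpn6* (1.89), the latter a partner of both inhibitory receptors, rose, and *Inpp5d*, the gene of the lipid phosphatase SHIP-1, fell by 2.79. *Ptpn11* rose by 0.76, with an adjusted p of 0.744 under quantile normalization. In M1, KpCKO differed from WT by 0.71 in *Inpp5d* and by −0.53 in the ubiquitin ligase gene *Cbl* (quantile normalization gave 2 higher genes and 1 lower gene), where 16.0% of all genes passed. These calls were lost under 4 and 8 of 14 alternatives, among them the second WT M1 or first KpCKO M1 array left out for *Inpp5d* and any 1 of the 4 arrays for *Cbl*, and neither Con nor M2 had a call in this list.

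**Figure D4:**
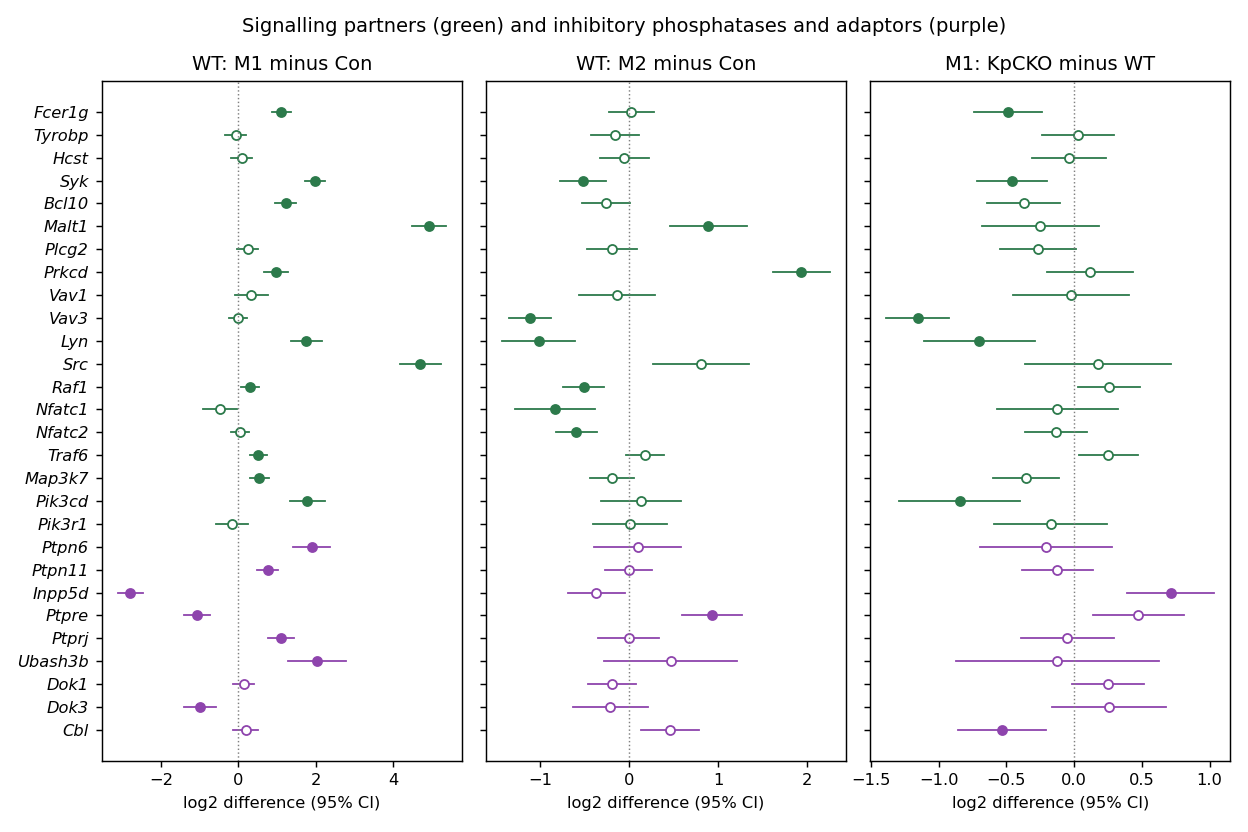
Log2 differences of 19 signalling partners (green) and 9 inhibitory phosphatases and adaptors (purple) for M1 against Con in WT (left), M2 against Con in WT (middle) and KpCKO against WT in M1 (right). Circles are limma estimates, filled where the adjusted p is under 0.05, and bars are 95% confidence intervals; *Malt1* (4.92) and *Src* (4.70) lie farthest to the right with M1.

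Other C-type lectin genes were described from a list of 30, of which 26 had a probe and 23 were tested. With M1 in WT, 6 rose and 3 fell, where 34.5% of all genes rose and 28.7% fell, and with quantile normalization 5 rose and 5 fell. The activation marker *Cd69* rose by 10.20 and the oxidized LDL receptor *Olr1* by 6.69, and *Klrk1* and *Klrb1b*, not well above background on the WT Con arrays, were at least 16.3-fold and 8.62-fold higher in M1. *Clec4a3* fell by 3.25, *Colec12* by 2.27 and *Clec4b1* by 1.16. With M2 in WT, 5 rose and 3 fell, where 8.62% of all genes rose and 8.20% fell. The galactose-type lectin *Mgl2* (4.84), the mannose receptor *Mrc1* (3.47) and *Clec10a* (2.87) rose, the last with a call lost without any 1 of the 4 arrays compared, so these lectins moved opposite to *Clec4d*, *Clec4n* and *Clec4e*.

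In KpCKO *Mrc1* was lower than in WT under each stimulus (−1.32 in Con, −1.28 in M1 and −0.92 in M2) and the scavenger lectin *Colec12* was higher (1.29, 1.35 and 1.68), each with an adjusted p under 0.05. Of all genes, 2.22% passed in Con, 16.0% in M1 and 1.93% in M2. *Clec2i* was higher in Con (1.80) and M2 (1.13). With normexp the adjusted p was 0.0646 for *Mrc1* in M2, and 0.205 and 0.749 for *Clec2i* in Con and M2. Without any 1 of the 4 arrays compared, the M2 calls of *Mrc1* and *Clec2i* were lost, and that of *Colec12* was lost without the first WT M2 array. In Con, the calls of *Mrc1*, *Colec12* and *Clec2i* were each lost without the first or second WT array and without 1 KpCKO array, the second for *Mrc1* and *Colec12* and the first for *Clec2i*. In M1, those of *Mrc1* and *Colec12* were lost under 1 of 14 alternatives, the fit of only the groups compared, which called 0 of all genes. Of the close relatives of *Clec4a2*, *Clec4a3* was not called between the genotypes in M1, at a mean level of −0.22 in WT and −0.52 in KpCKO. The relatives *Clec4a1* (−1.01, adjusted p = 0.0315) and *Clec4b1* (−1.01, adjusted p = 0.0394) were lower in KpCKO M1, where *Clec4a2* differed by −0.99. With normexp their adjusted p was 0.162 and 0.065, and the calls were lost without any 1 of the 4 M1 arrays, other than the first KpCKO M1 array for *Clec4a1*.

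For each gene, the genes whose levels followed it most closely over the 12 arrays were sought among 12109 genes above background on all arrays. The arrays fall into 3 stimuli and share mice and slides, so Pearson's r here describes mainly the stimulus. The closest gene was *Clec4b1* for *Clec4a2* (r = 0.989), *Pira2* for *Clec4d* (0.978), *Cxcl10* for *Clec4e* (0.998), *Cd302* for *Clec4n* (0.983), *Tgtp1* for *Clec5a* (0.994) and *Itga4* for *Clec12a* (0.996). *Cxcl10* encodes an interferon-induced chemokine, and *Fpr2* (0.994) and *Nod2* (0.993), a formyl peptide receptor and a sensor of bacterial wall fragments, came next for *Clec4e*. For *Clec5a* these were *Trex1* (0.994) and *Slfn2* (0.992). *Cd302* is itself a C-type lectin, and rose by 0.73 with M1 and fell by 1.41 with M2 in WT.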

How the data were processed

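Cy3-labelled RNA was hybridized to 12 Agilent 1-colour arrays. The authors deposited background-subtracted intensity values of 43379 spots per array (Agilent Feature Extraction 10.7.3.1), spot flags, and a matrix of log2 values normalized with GeneSpring. On 40749 shared probes the deposited log2 values match log2 intensities scaled to each array's 75th percentile and centred on the probe's median (slopes 0.999623 to 1.00036). Control and outlier spots were left out, repeated spots were averaged by probe, and each array's 75th percentile was subtracted on the log2 scale. Of 41174 probes, 26690 were named through RefSeq accessions (GRCm38.p6, used for names and promoter sequence; the array design names mm9). The brightest probe stood for a gene, and the 22367 genes that some group showed well above background on its 2 arrays were kept. A limma 3.58.1 model (R 4.3.3) held the culture beside 6 groups and left 5 residual degrees of freedom; Benjamini-Hochberg adjusted p was held to 0.05. Python 3.11.15, pandas 2.3.3 and matplotlib 3.10.9 made tables and plots. The model was tested on simulated data, and the outcome of that test is not given here.

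The number of arrays limits the precision, and no depth applies. The pairing by culture comes from the series' design text; same-culture deviations correlated by 0.162 to 0.597 in 15 pairs of groups. The members and lists were chosen with earlier results of these data known. Named from each list were up to 4 called genes with the largest difference in the M1 response of WT and in each genotype difference, and for each member the 3 genes of highest r, of which the closest are given for some; other names were chosen after their values were seen. Alternatives were quantile normalization, normexp background correction (offset 50), the authors' matrix, other filters on dim probes, the mean of a gene's probes, no culture block, the mouse as a random block, other variances, only the groups compared, each array left out, and the methods' t-test. The paper states the t-test for data shown as the mean of several mice, and selected its array genes by fold change in each culture. A gene below background in a group has a lower bound of its fold, from the higher of its own signal and the lowest signal well above background on each array.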

Additional observations from a re-analysis of the deposited data

How the results depend on the processing

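In the M1 response the count of called lectin genes was 5 of 6 in each genotype, and it stayed at 5 without any 1 of the 4 arrays compared. By the methods' t-test it was 3 in WT without adjustment, and 0 in WT and in KpCKO with it. In the M2 response of WT (5 called) it was 3 without the culture block, 2 to 3 without 1 array, and 3 and 0 by the t-test without and with adjustment. In the M2 response of KpCKO (4 called) it was 2 with normexp, 2 with no filter on dim probes, 2 without the culture block, 0 with only the groups compared in the fit, 1 without any 1 array, and 2 and 0 by the t-test. For the genotype difference in M1 (1 called) it was 0 with quantile normalization, normexp, no filter, no culture block and only the groups compared, 0 to 1 without 1 array, and 2 and 0 by the t-test. In M2 (1 called) it was 0 with no filter, no culture block, only the groups compared, any 1 array left out and the adjusted t-test. For the mean of the stimuli (4 called) it was 2 with quantile normalization, 2 with normexp, 1 with no filter, 1 without the culture block and 0 to 3 without 1 array. The count was 0 under every alternative for Con and for both differences of the responses. The number of all genes called also changed with the setting. In the M2 response of KpCKO it was 2286 in the main fit. It was 690 with normexp, 1232 with no filter, 895 without the culture block and 1 with only the groups compared. In the genotype difference in M1 it was 3579 in the main fit, 3382 with quantile normalization, 915 with normexp and 1191 without the culture block. With only the groups compared, 0 of all genes passed in each genotype difference within a stimulus. The cause of these changes was not tested. The pairing by culture changed the calls only as given here. Over all genes, the adjusted t-test called 2934 in the M1 response of WT and 2 in the M2 response of WT. It called 0 of all genes in both responses of KpCKO and in each genotype difference within a stimulus. Where it called 0 of all genes, it could not call a lectin gene, so its count there says nothing about them.

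Differences that changed sign were, apart from *Clec4d* in M1 of WT, not called on either side. With quantile normalization *Clec4d* turned to −0.68 (M1, WT) and −0.37 (M1, KpCKO), and the difference of the M1 responses turned to 0.080 for *Clec4a2* and 0.31 for *Clec4d*, where the median of all genes moved by 0.10. With normexp the genotype difference in M2 turned to 0.0086 for *Clec4a2* and −0.34 for *Clec12a*, and the difference of the M2 responses to −0.14 for *Clec12a*. Normexp moved the median of all genes from 0.13 to 0.40 in the M1 response of WT and from 0.02 to −0.22 in the genotype difference in M2. With the mean of the probes, *Clec5a* turned to 0.029 in the M2 response of WT. Without 1 array, the values ranged as follows. *Clec5a* in the M2 response of WT ranged from −0.16 to 0.084. In Con, the genotype difference ranged from −0.36 to 0.13 for *Clec4n* and from −0.55 to 0.059 for *Clec12a*. In M1 it ranged from −0.71 to 0.16 for *Clec4e*. In M2 it ranged from −0.27 to 0.082 for *Clec4a2* and from −0.12 to 0.30 for *Clec12a*. The difference of the M1 responses ranged from −0.51 to 0.12 for *Clec4a2*, from −0.18 to 0.12 for *Clec4d*, from −0.26 to 0.71 for *Clec5a* and from −0.49 to 0.21 for *Clec12a*, and that of the M2 responses from −0.011 to 0.87 for *Clec4e*.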
